A study of Homo sapiens with 208 samples.

Results

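The β-catenin destruction complex was followed through the mRNA of 10 of its components and direct regulators: AXIN1, APC, GSK3A, GSK3B, CSNK1A1, BTRC, DVL1, DVL2, DVL3 and TNKS. They were found through the RefSeq accession on each probe of a whole human genome array, where they held 19 of 41000 probes, and they are 10 of the 16961 genes with a named probe. Of the 10, 9 were bright enough to be tested, among 13261 tested genes, and APC was left out because its probe of largest variance was dim. The cells were PC9, a lung adenocarcinoma line with an activating deletion in EGFR that is sensitive to the EGFR tyrosine kinase inhibitor gefitinib, and PC9GRM2, which the labels call a gefitinib-resistant line. The study's methods describe a resistant line derived from PC9 by long culture in gefitinib and isolated as 1 clone, but under another name, and it was taken to be PC9GRM2 from the treatments, doses and time points. Both were starved for 48 h and then left untreated, given 100 ng/ml EGF, given 0.5 μM gefitinib ahead of the 0 h sample, or given EGF and gefitinib. RNA was taken from each of these 8 courses at 26 time points from 0 to 24 h and put on 1 array each.

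Without a Wnt ligand, the scaffolds AXIN1 and APC hold β-catenin next to its kinases. Casein kinase 1α (CSNK1A1) primes it, GSK3α and GSK3β (GSK3A and GSK3B) phosphorylate it further, and the F-box protein β-TrCP (BTRC) then brings in the ubiquitin ligase that marks it for the proteasome. When a Wnt ligand binds, the Dishevelled proteins (DVL1, DVL2 and DVL3) recruit AXIN1 to the receptor and the complex stops working, while tankyrase (TNKS) marks AXIN1 for degradation. GSK3 is also inhibited by AKT, a kinase downstream of EGFR. The values here are mRNA levels and carry nothing on phosphorylation or protein. In such bulk RNA, a lower level in every cell and fewer cells with the transcript cannot be told apart.

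The 250 bases upstream of 3 members are shown because the results turn on them: GSK3A and GSK3B differed between the lines in opposite directions, and AXIN1 fell with GSK3B under gefitinib. They are RefSeq sequences of build GRCh38.p14, all on the minus strand and written 5′ to 3′, and capitals mark the GC box GGGCGG on either strand. They lie at chr19:42242603-42242852, chr3:120094448-120094697 and chr16:352724-352973.
GSK3A: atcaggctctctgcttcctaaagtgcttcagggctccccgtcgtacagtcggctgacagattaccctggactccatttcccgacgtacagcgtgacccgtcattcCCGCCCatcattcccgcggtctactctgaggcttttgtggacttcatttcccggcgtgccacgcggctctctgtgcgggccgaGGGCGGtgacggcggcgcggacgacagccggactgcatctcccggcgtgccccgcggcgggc
GSK3B: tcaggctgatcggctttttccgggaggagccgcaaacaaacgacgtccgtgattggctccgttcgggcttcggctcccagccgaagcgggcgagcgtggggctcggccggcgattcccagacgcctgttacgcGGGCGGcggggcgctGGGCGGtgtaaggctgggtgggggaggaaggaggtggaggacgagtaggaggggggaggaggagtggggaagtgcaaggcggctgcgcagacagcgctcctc
AXIN1: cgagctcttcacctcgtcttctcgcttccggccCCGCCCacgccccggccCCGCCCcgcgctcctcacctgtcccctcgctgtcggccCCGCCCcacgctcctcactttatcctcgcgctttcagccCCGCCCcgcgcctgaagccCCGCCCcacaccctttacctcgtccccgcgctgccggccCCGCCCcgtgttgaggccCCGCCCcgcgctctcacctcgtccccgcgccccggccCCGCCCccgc
The GC box occurred 2 times upstream of GSK3A, 2 times upstream of GSK3B and 8 times upstream of AXIN1, and it was found in 42.6% of 35116 promoter windows of the same length. AXIN1 also held 1 ETS core (CCGGAAG, in 8.52% of windows). The letters of the CRE (TGACGTCA, 1.65%) and of the AP-1 site (TGACTCA, 4.2%) were not in these 3 windows on either strand.

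All values are log2 scanner intensities after quantile normalization, and a level of one probe cannot be set against that of another. Between 24755 and 36332 of the 45015 features per array were well above background. The epithelial markers EPCAM, CDH1, KRT7, KRT8, KRT18 and KRT19 and the lung marker NAPSA were well above background on all 104 arrays of each line, NKX2-1 on 72 and 99, and SFTPB on 46 and 43. The leukocyte marker PTPRC was so on 1 and 0 arrays, COL3A1 on 2 and 4, DCN on 19 and 12, and CDH5 on 18 and 16, but CD3E, PECAM1 and VWF, which these cells should lack, were on 96 to 104 arrays of each line. No slide and no scan day held both lines (52 slides, 8 scan days for PC9 and 9 for PC9GRM2), and 221 to 1702 features per array were saturated in PC9 against 0 in PC9GRM2. Line and scanning period therefore cannot be told apart, whereas each slide held all 4 treatments of 1 line at 1 time point. Each array was also set against the mean of its neighbouring time points, by the median over genes of the absolute difference. Untreated PC9GRM2 at 11 h stood apart most (0.67, against 0.192 as the median of all arrays), followed by untreated PC9 at 18 h (0.54). Calls that change without these time points are given with the result.

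The lines were first compared at matched time points without treatment, to ask which members differ in the resistant line. The members did not share a direction: 3 of the 9 tested members were higher in PC9GRM2 (AXIN1, GSK3A, BTRC) and 3 were lower (GSK3B, DVL2, DVL3), while CSNK1A1, DVL1 and TNKS did not pass the test. The background was wide, since 68.1% of all tested genes passed (30.3% higher and 37.8% lower), so 6 of 9 is near the background. The median difference of the members was -0.04, beside -0.06 for all genes. With gefitinib the same number passed in each direction (AXIN1, GSK3A and BTRC higher, GSK3B, DVL2 and DVL3 lower), against 64.7% of all genes (29.9% higher, 34.8% lower). With EGF 2 were higher and 3 lower (69.8% of all genes passed), and with EGF and gefitinib 3 were higher and 4 lower (67.7%). Each p is from limma's moderated test over the 26 differences, with Benjamini-Hochberg adjustment over all tested genes. Since each course had 1 array per time point, each p measures the spread between time points and not between cultures. The test takes successive differences as independent. Their lag-1 autocorrelation, as a median over genes, was 0.37 to 0.509 for the line differences and 0.257 to 0.49 for the gefitinib effects. The p, standard errors and intervals of these comparisons therefore tend to overstate the precision. For the EGF effects it was -0.0598 in PC9 and 0.0488 in PC9GRM2.

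GSK3B, the kinase that phosphorylates β-catenin after priming, had the largest line difference of the tested members without treatment and with EGF. It was measured by a single probe in 10 spots, so no other probe could be compared. Untreated PC9 arrays lay between 10.53 and 11.86 with a median of 11.15, and untreated PC9GRM2 arrays between 8.85 and 10.45 with a median of 9.94 (9.43 to 10.45 without the 11 h array). Every PC9GRM2 array was below every PC9 array, but how many of all tested genes had ranges apart was not counted. The mean difference was -1.22 (SE 0.0771, n = 26 time points), a level 2.33-fold lower, with an adjusted p of 2.88e-14 in limma's test. With EGF the ranges were again apart, 10.94 to 12 in PC9 and 9.5 to 10.65 in PC9GRM2, and the difference was -1.38 (SE 0.0731). With gefitinib they overlapped, 9.39 to 11.45 against 8.73 to 10.04, and 12 PC9GRM2 arrays lay below all PC9 arrays. The difference was then -0.71 (SE 0.0977), lower at 25 of 26 time points, and with EGF and gefitinib it was -0.70 (SE 0.0906).

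GSK3A, the second GSK3 kinase, differed the other way on its only probe, which had 1 spot. Untreated PC9 arrays ran from 12 to 13.58 with a median of 13.08, and PC9GRM2 arrays from 13.13 to 14.16 with a median of 13.72. GSK3A was higher in PC9GRM2 at 26 of 26 time points, by 0.71 (SE 0.0624, 1.63-fold, adjusted p = 3.97e-11, limma), and 18 PC9GRM2 arrays exceeded all PC9 arrays. Under gefitinib the difference was 0.69, under EGF 0.71 and under both 0.58, each past the threshold. As a description of both genes together, log2 GSK3A over GSK3B was higher in PC9GRM2 by 1.93 ± 0.408 (SD, n = 26 time points) without treatment, between 1.38 and 3.09 at single time points, and at most 2.6 without 11 h. It was higher by 1.40 ± 0.657 with gefitinib, by 2.09 ± 0.489 with EGF, and by 1.28 ± 0.583 with both, where 25 of 26 time points were higher.

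**Figure D1:**
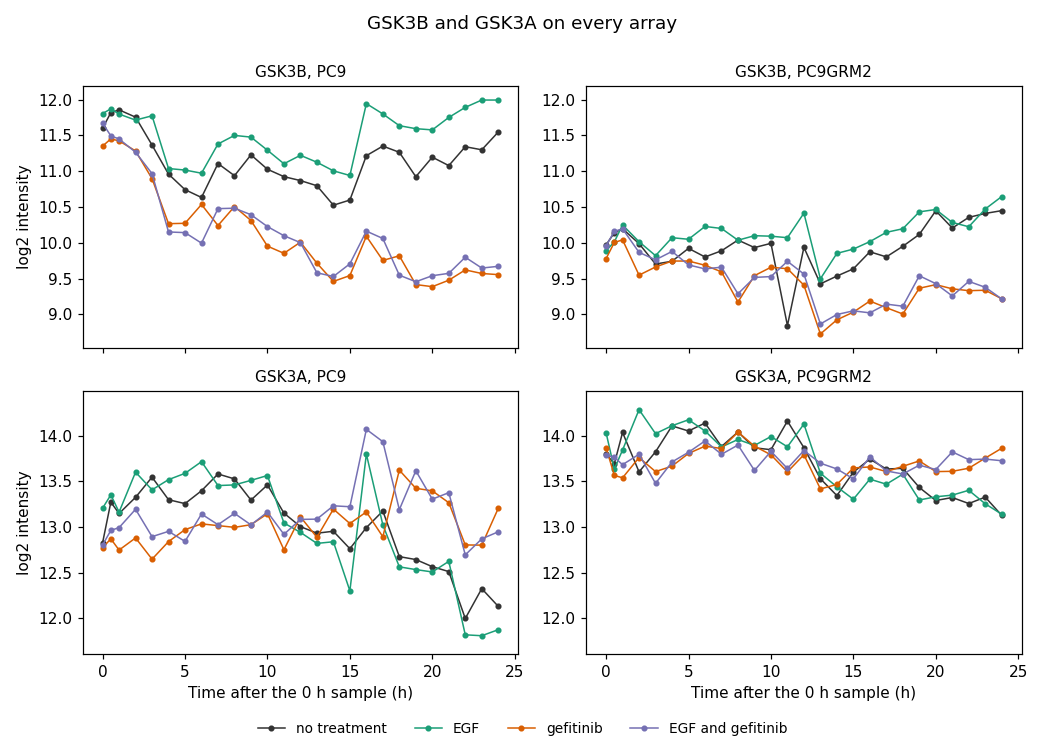
Log2 intensity of GSK3A and GSK3B (vertical axes) against time in hours (horizontal axes) in PC9 and PC9GRM2, with 1 point per array and 1 line per treatment. Untreated GSK3B lies between 10.53 and 11.86 in PC9 and between 8.85 and 10.45 in PC9GRM2, and with gefitinib it lies between 9.39 and 11.45 and between 8.73 and 10.04.

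AXIN1, the scaffold that limits the assembly of the complex, was slightly higher in PC9GRM2 on its only probe, which had 1 spot. Untreated arrays spanned 9.69 to 11.07 (median 10.37) in PC9 and 9.87 to 11.06 (median 10.62) in PC9GRM2, so the groups overlapped fully. The difference was 0.22 (SE 0.0843, adjusted p = 0.0224, limma), higher at 19 of 26 time points. It came to 0.57 (SE 0.103) with gefitinib and 0.65 (SE 0.0817) with EGF and gefitinib, at 24 of 26 time points in each, and 0.16 (adjusted p = 0.149) with EGF alone. The untreated difference averaged 0.42 from 0 to 11 h and 0.02 from 12 to 24 h. The same periods gave 0.85 and 0.29 with gefitinib, 0.49 and -0.16 with EGF, and 0.83 and 0.46 with both. The untreated call was lost over time points 3 h apart (adjusted p = 0.275) and with the variance inflated for autocorrelation (0.138). APC, the second scaffold, was not tested: its most variable probe was well above background on 0 to 7 of the 26 arrays of a course. A second APC probe, in 10 spots, was so on 16 to 24, with course medians between 4.57 and 5.17, and its untreated line difference was -0.18 (adjusted p = 0.417 where each gene is taken by its brightest probe). By that rule the effect of gefitinib on APC was -0.28 in PC9 (adjusted p = 0.0563, limma) and -0.08 in PC9GRM2 (0.373). With EGF present it passed as lower in both lines, at -0.26 in PC9 (0.00161) and -0.19 in PC9GRM2 (0.00139).

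CSNK1A1, the priming kinase, was lower in PC9GRM2 on the 2 brighter of its 3 probes, but not on the probe of largest variance. The probe of largest variance overlapped fully, 9.6 to 11.53 (median 10.58) in untreated PC9 and 9.69 to 11.5 (median 10.59) in PC9GRM2, with a difference of 0.02 (SE 0.151, adjusted p = 0.935, limma). The other 2 probes, both brighter, differed by -0.37 (lower at 18 of 26 time points) and -0.75 (lower at 25 of 26). Where each gene is taken by its brightest probe, CSNK1A1 passed as lower without treatment (-0.37, adjusted p = 0.00029, limma). By that rule it also passed with gefitinib (-0.464, 1.24e-06), with EGF (-0.425, 2.49e-05) and with both (-0.482, 2.05e-06). All 3 carry the same accession, and the line difference of CSNK1A1 is uncertain here. With EGF and gefitinib the first probe was at -0.33 (adjusted p = 0.0662), and at -0.39 without the 11 h time point (adjusted p = 0.0319).

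BTRC, which recognises phosphorylated β-catenin, was higher in PC9GRM2 on the probe used. Untreated PC9 arrays spanned 7.96 to 9.53 (median 8.46) and PC9GRM2 arrays 8.54 to 9.63 (median 9.17). The ranges overlapped, with 24 of 26 time points higher, by 0.57 (SE 0.0782, 1.48-fold, adjusted p = 2.58e-07, limma). The difference was 0.65 with EGF, 0.15 with gefitinib and 0.19 with both, and the last 2 calls were lost over time points 3 h apart (adjusted p = 0.368 and 0.383). The second, dimmer BTRC probe was lower in PC9GRM2 in all 4 comparisons, by -0.27 without treatment (lower at 21 of 26 time points), -0.33 with gefitinib (20 of 26), -0.23 with EGF (15 of 26) and -0.31 with both (20 of 26). The direction for BTRC therefore depends on the probe.

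The Dishevelled members did not move together. DVL2 was lower in PC9GRM2 on its only probe, with a difference of -0.33 (SE 0.0994, adjusted p = 0.00402, limma) and arrays between 10.31 and 11.74 (median 10.86) in PC9 and between 9.81 and 11.11 (median 10.74) in PC9GRM2. The ranges overlapped, 20 of 26 time points were lower, and the call was lost over time points 3 h apart (adjusted p = 0.167). For DVL2 the other treatments gave -0.44 (gefitinib), -0.31 (EGF) and -0.47 (both). DVL3 was lower on the probe used, with a difference of -0.92 (SE 0.136, adjusted p = 7.28e-07, limma), from a median of 9.67 (8.67 to 10.47) to a median of 8.56 (8.06 to 9.38), at 23 of 26 time points. On the other 2 DVL3 probes the difference was -0.30 and -0.04. With gefitinib, EGF and both, the probe used gave -0.83, -0.85 and -0.94. The brightest DVL3 probe then gave 0.24, 0.004 and 0.27, none past the threshold, so the line difference of DVL3 depends on the probe. DVL1 had a difference of -0.04 (SE 0.114, 95% interval -0.28 to 0.19, adjusted p = 0.744, limma), and its second probe was saturated on 18 to 26 of the 26 arrays of each PC9 course. On the probe used, the untreated DVL1 difference averaged 0.22 from 0 to 11 h and -0.31 from 12 to 24 h. The same periods gave 0.43 and -0.76 with gefitinib, 0.38 and -0.49 with EGF, and 0.56 and -0.55 with both.

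TNKS, the tankyrase gene, was dim on the probe used, at 5 to 6.29 (median 5.82) in untreated PC9 and 4.65 to 6.83 (median 5.64) in PC9GRM2, where the highest array but for the one at 11 h was at 6.37. Its difference of -0.21 (SE 0.112, adjusted p = 0.0975, limma) did not pass the test, and it was -0.26 with the same test without the 11 h time point (adjusted p = 0.0286). The brightest TNKS probe gave 0.49, higher at 19 of 26 time points, and the remaining one -0.07. The sign for TNKS therefore depends on the probe. With EGF and gefitinib TNKS was lower on the probe used (-0.26, SE 0.0981, adjusted p = 0.0202, limma), and over time points 3 h apart it was at -0.11 (adjusted p = 0.504).

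**Figure D2:**
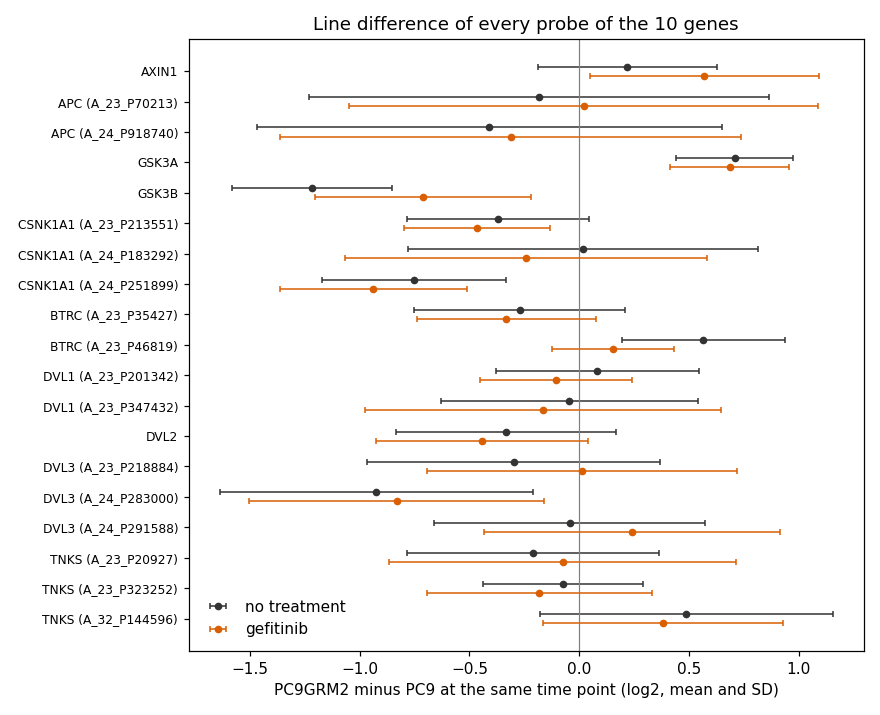
Mean difference, PC9GRM2 minus PC9, at the same time point (log2, horizontal axis) for each probe of each member, without treatment and with gefitinib, where bars are the SD over the time points. GSK3B lies at -1.22 and GSK3A at 0.71 without treatment, and the 2 BTRC probes lie on opposite sides of 0, at 0.57 and -0.27.

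The effect of gefitinib was then taken as the gefitinib array minus the untreated array of the same line, time point and slide. In PC9, 3 of the 9 tested members rose (CSNK1A1, BTRC, DVL2) and 2 fell (AXIN1, GSK3B), against 72.2% of all tested genes (34.8% higher, 37.4% lower). In PC9GRM2, BTRC rose and AXIN1, GSK3B and DVL1 fell, against 66.5% of all genes (32.5% higher, 34% lower). Set against EGF alone, gefitinib with EGF raised 3 and lowered 3 members in PC9 (78.9% of all genes passed) and raised 2 and lowered 4 in PC9GRM2 (74.4%). The medians of the members were -0.22 in PC9 and -0.15 in PC9GRM2, beside -0.03 and -0.01 for all genes.

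GSK3B fell in both lines. In PC9 the gefitinib arrays ran from 9.39 to 11.45 with a median of 9.98, and 20 of them lay below all untreated arrays. The effect was -1.01 (SE 0.105, 2.01-fold lower, adjusted p = 1.79e-09, limma), lower at 26 of 26 time points and on 8 of 8 scan days. It was -0.25 at 0 h, -0.47 at 3 h, -0.10 at 6 h, -0.86 at 12 h, -1.45 at 18 h and -1.99 at 24 h, so that the later arrays were the lowest against their untreated partners. In PC9GRM2 the gefitinib arrays ran from 8.73 to 10.04 with a median of 9.41. Of these, 1 lay below all untreated arrays, and 14 did when the untreated array at 11 h was left out. The effect there was -0.50 (SE 0.0859, adjusted p = 8.27e-06, limma), lower at 24 of 26 time points and on 9 of 9 scan days. Over the time points from 0 to 11 h it was -0.18 (adjusted p = 0.191), or -0.26 without 11 h (adjusted p = 0.0129), and over those from 12 to 24 h -0.83 (adjusted p = 9.26e-09). At 24 h it was -1.23. Its highest value, 0.79 at 11 h, rests on the untreated array that stood apart, and without that time point the effect was -0.56.

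The effect on GSK3B differed by 0.50 between the lines (SE 0.0851, adjusted p = 3.64e-05, limma), in that the fall was smaller in PC9GRM2 at 24 of 26 time points. Untreated PC9GRM2 also started lower, by the line difference above. Of all genes, 34.1% passed this test. With EGF present, the GSK3B effect of gefitinib was -1.31 (SE 0.125) in PC9 and -0.63 (SE 0.0799) in PC9GRM2. The 3 genes whose levels followed GSK3B most closely over all arrays were ABL2 (Pearson r = 0.931), AGO2 (0.923) and FAT1 (0.923), as a description over arrays that share lines and treatments.

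GSK3A showed no mean effect of gefitinib, at 0.03 in PC9 (95% interval -0.19 to 0.25, adjusted p = 0.82, limma) and 0.01 in PC9GRM2 (-0.12 to 0.13, adjusted p = 0.936). Its course was not flat. In PC9 it was lower with gefitinib from 0 to 11 h, by -0.41 on average (adjusted p = 0.000154), and higher from 12 to 24 h, by 0.47 (adjusted p = 0.00201). It was -0.90 at 3 h and 1.07 at 24 h. Untreated PC9 fell from 13.58 at 7 h to 12.13 at 24 h, while the gefitinib arrays stayed between 12.65 and 13.62. In PC9GRM2 the same periods gave -0.17 (adjusted p = 0.105) and 0.18 (adjusted p = 0.0301), and with EGF -0.23 (adjusted p = 0.00634) and 0.25 (adjusted p = 0.00254). In PC9 with EGF they gave -0.42 (adjusted p = 1.1e-05) and 0.71 (adjusted p = 3.34e-06).

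AXIN1 fell with gefitinib in both lines. In PC9 the arrays ran from 8.81 to 10.33 with a median of 9.6, and 15 of 26 lay below all untreated arrays. The effect was -0.75 (SE 0.0905, 1.68-fold lower, adjusted p = 2.71e-08, limma), lower at 24 of 26 time points and on 8 of 8 scan days. In PC9GRM2 the arrays ran from 8.82 to 11.04 with a median of 10.3, and the effect was -0.40 (SE 0.0732, adjusted p = 2.28e-05, limma), lower at 22 of 26 time points and on 9 of 9 scan days. It was 0.06 at 0 h and -1.11 at 3 h in PC9, and 0.16 and -0.34 in PC9GRM2. The effects differed between the lines by 0.35 (SE 0.101, adjusted p = 0.00797), at 21 of 26 time points. With EGF present the effect was -0.92 (SE 0.0682, 26 of 26 lower) in PC9 and -0.44 (SE 0.069) in PC9GRM2.

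BTRC rose with gefitinib. In PC9 the arrays ran from 8.4 to 9.72 with a median of 9.39, higher than their untreated partners at 26 of 26 time points, by 0.68 (SE 0.0866, 1.61-fold, adjusted p = 6.34e-08, limma). The effect was 0.32 from 0 to 11 h and 1.05 from 12 to 24 h, and at 24 h BTRC was at 8.32 without treatment and at 9.72 with gefitinib. In PC9GRM2 the arrays ran from 8.97 to 9.96 with a median of 9.48, and the effect was 0.27 (SE 0.0612, adjusted p = 0.000291, limma), higher at 21 of 26. That call was lost over time points 3 h apart (0.25, adjusted p = 0.0554). The effects differed between the lines by -0.41 (SE 0.093, adjusted p = 0.00102), with -0.03 (adjusted p = 0.907) from 0 to 11 h and -0.79 (adjusted p = 1.71e-06) from 12 to 24 h. The second BTRC probe gave 0.16 in PC9 and 0.10 in PC9GRM2, at 18 and 17 of 26 time points higher.

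**Figure D3:**
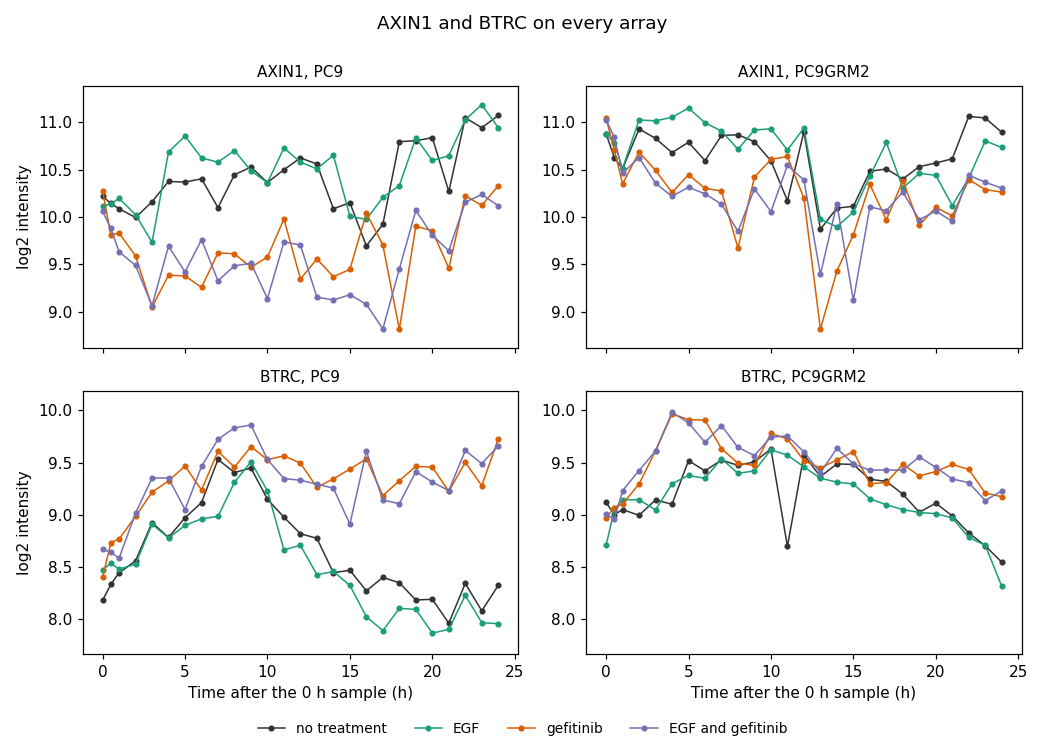
Log2 intensity of AXIN1 and BTRC (vertical axes) against time in hours (horizontal axes) in each line, with 1 point per array and 1 line per treatment. At most time points AXIN1 with gefitinib, alone or with EGF, runs below its course without gefitinib, and BTRC runs above it. In PC9 the BTRC gap is mostly wider after 10 h.

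CSNK1A1 rose by 0.44 in PC9 (SE 0.106, adjusted p = 0.000554, limma), and all 3 probes were higher at 20 of 26 time points, by 0.44, 0.29 and 0.22. In PC9GRM2 the value was 0.18 (adjusted p = 0.0604, 25 time points). The 3 Dishevelled genes again parted. DVL1 fell in PC9GRM2 (-0.34, SE 0.0985, adjusted p = 0.00376, limma) and had a value of -0.22 in PC9 (adjusted p = 0.0599). With EGF present DVL1 fell in both lines, with -0.55 (SE 0.0795) in PC9 and -0.48 (SE 0.0916) in PC9GRM2. DVL2 rose by 0.20 in PC9 (SE 0.0747, adjusted p = 0.0166), a call lost over time points 3 h apart (adjusted p = 0.106), and was at 0.10 in PC9GRM2 (adjusted p = 0.0661, and 0.0457 without the 18 h time point). DVL3 gave -0.24 in PC9 (adjusted p = 0.0542, and 0.0435 without the 11 h time point) and -0.15 in PC9GRM2 (adjusted p = 0.0815). With EGF present DVL3 gave -0.20 in PC9GRM2 (adjusted p = 0.0526), and 0.0483 or 0.0491 without 11 h or 18 h. The 3 DVL3 probes were between -0.37 and -0.24 in PC9. The brightest of them passed as lower in PC9, at -0.294 (adjusted p = 0.0035, limma), and at -0.239 with EGF present (6.67e-06). In PC9GRM2 it was at -0.009 (0.924) and, with EGF present, at 0.031 (0.662). TNKS gave -0.32 in PC9 (adjusted p = 0.117, limma), where its lowest gefitinib array was at 2.43. That mean joins 0.32 from 0 to 11 h and -0.97 from 12 to 24 h, and the same periods gave 0.3 and -0.67 in PC9GRM2. The brightest TNKS probe gave 0.43 in PC9 and 0.32 in PC9GRM2, each higher at 24 of 26 time points. With EGF present TNKS fell in PC9GRM2 (-0.46, SE 0.128, adjusted p = 0.0022), but its brightest probe was at 0.38. Over all arrays, AXIN1 and DVL1 levels had a Pearson r of 0.73, and 0.838 after each course was centred, as a description over arrays of shared time and treatment.

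**Figure D4:**
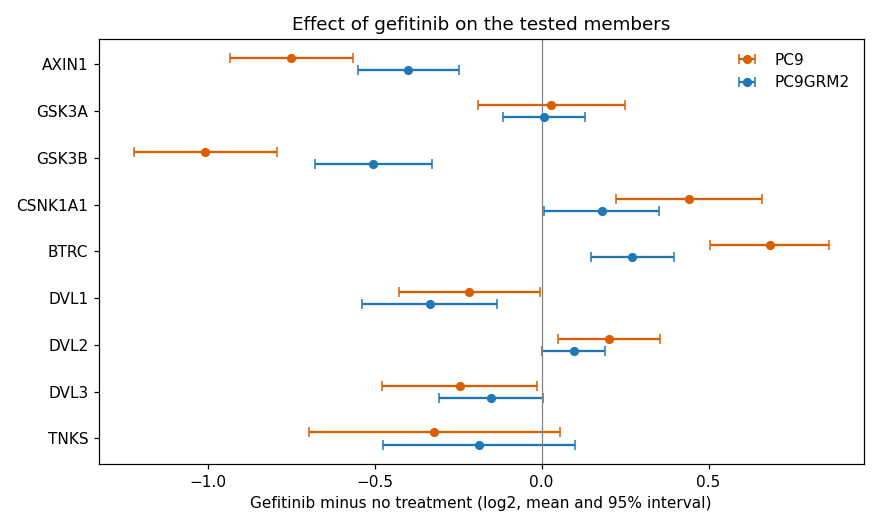
Mean effect of gefitinib on each of the 9 tested members (log2, horizontal axis) in PC9 and PC9GRM2. Bars are the 95% interval from limma over up to 26 time points, taken as independent. AXIN1 and GSK3B lie below 0 and BTRC above 0 in both lines, farther from 0 in PC9.

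EGF changed 2 of the 9 tested members in PC9 and 1 of 9 in PC9GRM2, each near the share of all genes given with it. In PC9, GSK3B rose by 0.36 (SE 0.0438, adjusted p = 6.86e-07, limma), at 24 of 26 time points, and BTRC fell (-0.12, SE 0.041, adjusted p = 0.0252), while 25.6% of all genes passed. In PC9GRM2 GSK3B rose by 0.20 (SE 0.0526, adjusted p = 0.0156), at 22 of 26, while 9.07% of all genes passed. Without the 11 h time point that value was 0.15 (adjusted p = 0.00337), and TNKS also passed (0.26, adjusted p = 0.00853). The EGF effect on GSK3B in PC9GRM2 did not pass over time points 3 h apart (0.21, adjusted p = 0.147). The EGF effects and the gefitinib effects share the untreated arrays. By limma, 0 of the 9 members differed between the lines in their EGF effect, where 1.34% of all genes did, and GSK3B alone did without the 11 h time point (-0.21, adjusted p = 0.0458).

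Untreated members also changed with time after starvation. A spline over 24 h passed for 8 of 9 members in PC9 (66.5% of all genes) and for 9 of 9 in PC9GRM2 (67.5%). GSK3A had a fitted range of 1.43 in PC9, highest at 6 h and lowest at 24 h (adjusted p = 1.25e-07, limma), and 0.86 in PC9GRM2 with the same peak and trough. The fitted BTRC course ranged over 1.13 in PC9, from a peak at 7 h to a trough at 20 h (adjusted p = 1.57e-08, limma), and over 0.86 in PC9GRM2, from 8 h to 24 h. The fitted GSK3B course in PC9 was highest at 0 h and lowest at 9 h, over 1.00. Of the GSK3B arrays themselves, the highest was at 1 h (11.86) and the lowest at 14 h (10.53). DVL3 in PC9 did not pass (adjusted p = 0.745). Scan days ran with time within each line, so change over time and scan day cannot be told apart. With scan day as a random block, 7 of the 9 members still passed in PC9 (54.1% of all genes) and 3 of 9 in PC9GRM2 (39%). The median fitted range was 1.00 for the members in PC9 and 0.94 in PC9GRM2, beside 0.99 and 0.97 for all genes.

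CTNNB1, which encodes β-catenin, the substrate of the complex, was higher in untreated PC9GRM2 by 0.95 (SE 0.218, adjusted p = 0.000322, limma), at 20 of 26 time points. Arrays ran from 11.45 to 13.14 (median 11.94) in PC9 and from 11.95 to 14.98 (median 12.68) in PC9GRM2, so they overlapped. The difference averaged 2.7 (1.59 to 3.34) over the 6 time points from 10 to 15 h, which for PC9GRM2 were 2 scan days, and 0.43 over the other 20 (14 higher, adjusted p = 0.0104), and at 24 h it was -0.34. The second CTNNB1 probe gave 1.30, at 25 of 26. With gefitinib the line difference was 1.34 (SE 0.21). Gefitinib lowered CTNNB1 in PC9 (-0.41, SE 0.0938, adjusted p = 0.000319) and gave -0.02 in PC9GRM2 (adjusted p = 0.836), a difference of effects of 0.39 (adjusted p = 0.00156).

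Among 18 tested partners in the complex and its phosphatases, 4 were higher and 6 lower in untreated PC9GRM2, with a median of -0.04, beside 68.1% of all genes called and a median of -0.06. The largest called were the casein kinase CSNK1E (-0.73), the GSK3-binding FRAT2 (-0.72) and CSNK1G1 (-0.60). Gefitinib in PC9 raised 6 and lowered 7 of them (median 0.09), beside 72.2% of all genes and a median of -0.03, led by AXIN2 (2.82), the paralogue of AXIN1 that is induced by the pathway itself, FRAT1 (1.14) and the scaffold AMER1 (-1.004). AXIN2 rose at 26 of 26 time points in each line, by 2.96 in PC9GRM2, whereas AXIN1 fell in both. Between the lines AXIN2 did not pass, at -0.009 without treatment (adjusted p = 0.969, limma) and 0.138 with gefitinib (0.26). In PC9GRM2, gefitinib raised 8 and lowered 5 of these genes, beside 66.5% of all genes.

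Of 9 genes of the ubiquitin and tankyrase arm, 3 were higher and 3 lower in untreated PC9GRM2, with the ligase SIAH2 at -0.68, the deubiquitinase USP34 at -0.60 and RNF146, the ligase for tankyrase-modified axin, at 0.48. Gefitinib in PC9 raised 2 and lowered 4, with RNF146 at 0.67, CUL1, the scaffold of the β-TrCP ligase, at -0.60 and USP34 at -0.40. Of 8 tested receptors and Dishevelled regulators, 2 were higher and 4 lower in untreated PC9GRM2, with the Dishevelled antagonists NKD2 at -1.59 and NKD1 at -0.75 and the coreceptor LRP5 at 0.67. Gefitinib in PC9 raised 4 and lowered 2, with the Dishevelled-binding CXXC5 at 2.52 and CXXC4 at 2.18 and LRP5 at 0.75. Of 8 tested substrate and nuclear partners, 3 were higher and 3 lower in PC9GRM2, with the transcription factor LEF1 at 1.502, the coactivator BCL9L at -1.20 and CTNNB1 at 0.95. Gefitinib in PC9 raised 2 and lowered 4, with TCF7L1, a factor of the LEF1 family, at 2.93, BCL9 at -0.65 and CTNNB1 at -0.41. The medians of these 3 lists were 0.00, -0.12 and 0.06 between the lines and -0.05, 0.17 and -0.08 for gefitinib in PC9, beside -0.06 and -0.03 for all genes, of which 68.1% and 72.2% passed.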

How the data were processed

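RNA of PC9 and PC9GRM2 cells was hybridised to one-colour arrays (Cy3), 1 per time point of 8 courses. The authors deposited scanner intensities after background subtraction and detrending by the scanner software, without normalization between arrays, and a table that matches their quantile-normalized intensities. Here the processed signals were quantile normalized over 45015 features and all arrays, set to a floor of 1 and log2 transformed. Spots flagged as outliers (0.0793% of tested values) were removed and spots of a probe averaged. A symbol was found by accession for 24794 of 41000 probes. Each gene was represented by its probe of largest variance, as the study's methods state, and tested if well above background on at least 13 of 26 arrays of a course, which left out 3700 genes. Matched time-point differences were tested two-sided with limma 3.58.1 in R 4.3.3 (threshold 0.05, Benjamini-Hochberg), and change over time with a spline of 4 degrees of freedom. Scripts were tested on simulated data. One of the cell type markers is not reported here. Depth has no meaning for arrays, where the number of arrays limits the precision. For 2 member values the only spot was an outlier, so that the comparisons with them had 25 time points. The array files were made for build hg18 and symbols and promoters come from RefSeq GRCh38.p14. The members and gene lists were chosen with earlier results of these data known. All 10 members are named, and from each further list the 3 called genes of largest difference between untreated lines and with gefitinib in PC9, and CTNNB1. Alternatives covered normalization (75th percentile, normexp with offset 50 on the median signals), the deposited table, floor, filters, choice of probe, thinned or split time points, autocorrelation, unpaired fits, scan day and a minimum fold of 1.5. The fits without the 11 h or the 18 h time point, over the first 13 time points without 11 h, and of CTNNB1 without 10 to 15 h were chosen after seeing the data.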

Additional observations from a re-analysis of the deposited data

Results flagged for a closer look

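The effect of gefitinib differed between the lines, by a test of the difference itself, for 3 of the 9 tested members, while 34.1% of all genes passed this test. For GSK3B the effect in PC9GRM2 minus that in PC9 was 0.504 on the log2 scale (adjusted p = 3.64e-05, limma, 24 of 26 time points), a smaller fall in PC9GRM2. For AXIN1 it was 0.35 (adjusted p = 0.00797, 21 of 26), also a smaller fall. For BTRC it was -0.411 (adjusted p = 0.00102, 21 of 26), a smaller rise. Over time points 3 h apart the values were 0.42, 0.63 and -0.43 with adjusted p of 0.0602, 0.0602 and 0.116. The 2 lines were scanned on different days.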

How the results depend on the processing

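Over all alternatives, 2045 values of single members kept their side of the threshold with no called value changing sign, 156 lost a call, 64 gained one and 34 with a call changed sign. The causes of these changes were not tested, except where fewer time points or a stricter rule are the alternative itself. With the brightest probe in place of the most variable, the line differences without treatment, with gefitinib, with EGF and with both were 0.488, 0.38, 0.607 and 0.37 for TNKS, those of DVL3 with gefitinib, EGF and both 0.242, 0.004 and 0.274, and that of untreated CSNK1A1 -0.371. The TNKS gefitinib effect was then 0.429 in PC9 and 0.321 in PC9GRM2, and with EGF present 0.614 and 0.377. With the mean of all probes, untreated CSNK1A1 was at -0.369 and BTRC at -0.089 with gefitinib and -0.057 with both. Over the first 13 time points the DVL1 line difference was 0.433 with gefitinib and 0.378 with EGF, the gefitinib effect on GSK3A -0.415 in PC9 and, with EGF present, -0.425 in PC9 and -0.23 in PC9GRM2, and that on TNKS 0.324 in PC9 and, with EGF present, 0.235 and 0.029. Without 11 h the first 13 gave 0.348, 0.498 and 0.458 for the DVL1 line difference without treatment, with gefitinib and with EGF, -0.416 for the gefitinib effect on GSK3A in PC9 and, with EGF present, -0.45 in PC9 and -0.229 in PC9GRM2, and for that on TNKS 0.402 in PC9, 0.414 in PC9GRM2 and, with EGF present, 0.266 and 0.071. Over the last 13, the DVL1 line difference with EGF and gefitinib was -0.545. The members called fell to 3 for the line difference without treatment, with gefitinib and with both, for gefitinib in PC9 with and without EGF to 3, and for gefitinib in PC9GRM2 to 0, with EGF to 1, when a change of 1.5-fold was required, which also left 0 for each EGF effect and for the difference of gefitinib effects. Of all genes, 36.5% to 38.9% were then called for the line differences, 26.5% to 41.4% for the gefitinib effects, 1.24% and 0.4% for EGF in PC9 and PC9GRM2, and 12.3% for the difference of gefitinib effects. Tested one-sided for higher in PC9GRM2, they were 3, 3, 2 and 3, with 29.7% to 31.8% of all genes. For gefitinib in PC9GRM2 they were 2 over the first 13 (5 without 11 h) and 8 over the last 13 time points, where 40.7% (44.5%) and 73.7% of all genes were called. For EGF in PC9 they were 1 over time points 3 h apart, over the first 13 with or without 11 h, and unpaired with or without scan day as a random block (3.02% to 15.4% of all genes). For EGF in PC9GRM2 they were 0 over time points 3 h apart, over the first 13 with or without 11 h and unpaired (0.106% to 1.79% of all genes), 3 over the last 13 (13.2%) and 2 without 11 h (12.8%). For the difference of gefitinib effects they were 0 over time points 3 h apart (7.87%), 1 over the first 13 (7.9%) and 0 over those without 11 h (7.53%), and for the difference of EGF effects 1 without 11 h (1.65%). For change over time they were 4 in PC9 and 4 in PC9GRM2 with a fitted range of at least 1 (42.4% and 41.2% of all genes), and 3 in PC9GRM2 with scan day as a random block (39%). Signal limits the APC and TNKS probes of largest variance. The APC probe was well above background on 0 to 7 arrays of a course. The TNKS probe was dim, but well above background on 18 to 25.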
